A study of Mus musculus with 6 samples.

Results

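The genes described here encode integrins, laminins and nidogens, the receptors and core proteins through which a muscle cell holds to its basement membrane. Members were chosen by gene symbol alone: integrin alpha genes with a number, integrin beta genes, laminin alpha, beta and gamma chains, and the nidogens. The rule found 33 members among the 27179 genes of the deposited count table: 12 integrin alpha, 8 integrin beta, 11 laminin and 2 nidogen genes. Integrin alpha genes named by a letter, such as Itgav, fall outside it and are given as context.

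The study compared myotubes with myoblasts of C2C12, an established mouse myogenic cell line, by sequencing of polyadenylated RNA in 3 libraries of each. Myotubes came from cells at 100% confluence for 3 days that were then given, over 5 days, medium with 2% horse serum, an insulin, transferrin and selenium supplement and 4 mM glutamine. Myoblasts were grown below confluence in 10% fetal bovine serum with the same 4 mM glutamine. Serum, supplement, cell density and time therefore differed together with differentiation, and their parts cannot be told apart. Both groups are 1 cell line, with no fibres, vessels or nerve, and no label says that the libraries of a group came from separate cultures, so the p-values speak of library spread alone, which may be technical.

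Integrins are heterodimers of an alpha and a beta chain, and the alpha chain largely sets what the pair binds: laminin, collagen, or ligands with an arginine-glycine-aspartate (RGD) motif such as fibronectin. Laminins are trimers of an alpha, a beta and a gamma chain that assemble into the basement membrane sheet, and nidogens link that sheet to collagen IV. In skeletal muscle the laminin trimer with the alpha2 chain surrounds mature fibres and is bound by the integrin alpha7 beta1 pair and by dystroglycan; loss of the alpha2 chain causes a congenital muscular dystrophy.

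Library totals were 7370169 to 8339589 counts in myotubes and 10076945 to 11723881 counts in myoblasts. Levels are CPM, the counts scaled to library size with TMM factors, unless stated per length. All 7 myotube markers on the list used, among them Ckm and Casq1, were higher in myotubes, with a summed level of 12339 to 12862 CPM in myotubes against 67.5 to 86.2 CPM in myoblasts. Casq1, with 11 counts over the myoblast libraries, and Ckm, with 38, could be tested only through their myotube counts. The myoblast markers were split, with 2 higher and 3 lower in myotubes, and all 6 cell-cycle genes were lower, with sums of 134 to 143 CPM in myotubes against 1773 to 1780.2 CPM in myoblasts. Myotube cultures can also hold unfused cells, and in RNA from whole cultures a smaller share of one cell type cannot be told apart from less RNA per cell.

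Of the 33 members, 28 passed the filter on low counts. By edgeR's quasi-likelihood test, at 0.05 after Benjamini-Hochberg adjustment over the 12800 genes tested, 13 members were higher in myotubes, 12 were lower, and 3 (Itga6, Itgb2 and Itgb4) were not called either way. Across all genes tested, 79.5% were called, 40.2% higher and 39.2% lower, so being called does not set a member apart in this comparison. Past a 2-fold change, tested against a log2 threshold of 1, there were 9 members higher and 4 lower, beside 12.4% of all genes higher and 9.20% lower. By this fit, the members higher past 2-fold were Itga2b, Itga4, Itga7, Itga9, Itga11, Itgb6, Lama1, Lama2 and Lama4, and those lower were Itga3, Itgb3, Itgb7 and Nid1. The 2-fold call of Itga2b was lost with limma-voom, the DESeq2 Wald test, total counts or no filter, and without myotube replicate 2 or myoblast replicate 2 or 3, that of Lama1 in both other tests and without myotube replicate 3 or myoblast replicate 2, and that of Itgb3 in the DESeq2 Wald test. The median log2 change of the tested members was 0.10, against 0.02 over all genes tested. Groups did not overlap for 26 tested members, beside 80.5% of all genes. Of the tested members, Itga9, Lama1 and Lama4 passed the filter through the myotubes alone and Itgb7 through the myoblasts alone, so these had to differ to be tested.

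**Figure D1:**
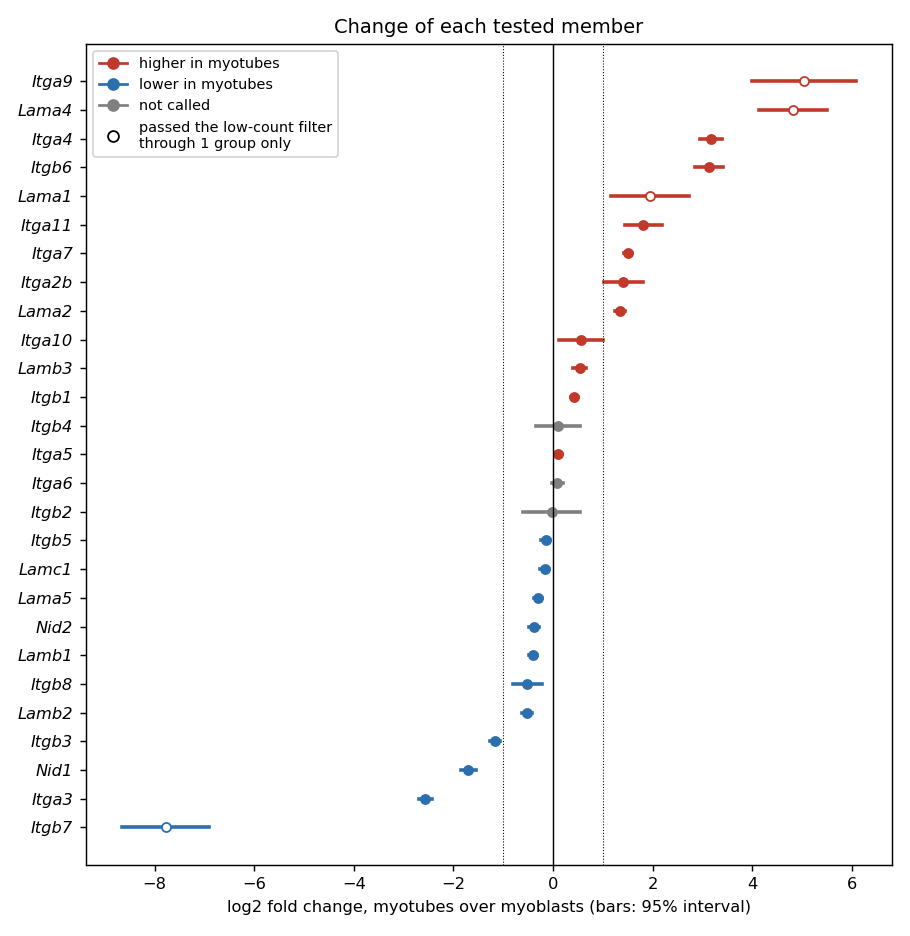
Log2 change of myotubes over myoblasts for 27 of the 28 tested members, with 95% intervals, ordered by the change; open circles mark members that passed the low-count filter through 1 group only, and dotted lines a 2-fold change. The fitted values of Itga9 and Itgb7, with 3 counts or fewer in a group, depend on the fit's prior count. Positive values are higher in myotubes: integrin alpha genes lie mostly to the right, Itga3 at -2.57 and both nidogens to the left. Of the laminin alpha genes, Lama2 lies to the right at 1.35 and Lama5 to the left at -0.31. Lama1, Lama4 and the integrin gene Itga9 passed the filter through the myotubes alone, so these had to lie to the right.

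The 5 sequences below show the start sites of members that changed past 2-fold in each direction and whose listed window lies wholly outside the RefSeq gene interval: Itga4, Itga11, Itga2b and Itgb6, which rose, and Nid1, which fell. Each is the 250 bases before a RefSeq start on GRCm38.p6, read 5′ to 3′ on the gene's strand, with capitals marking each match to CANNTG, the E-box letters that myogenic factors such as MyoD bind. Itga4 is chr2:79255176-79255425, Itga11 is chr9:62677605-62677854 and Nid1 is chr13:13437352-13437601, all on the plus strand. Itga2b is chr11:102469884-102470133 and Itgb6 is chr2:60722604-60722853, both on the minus strand.
Itga4: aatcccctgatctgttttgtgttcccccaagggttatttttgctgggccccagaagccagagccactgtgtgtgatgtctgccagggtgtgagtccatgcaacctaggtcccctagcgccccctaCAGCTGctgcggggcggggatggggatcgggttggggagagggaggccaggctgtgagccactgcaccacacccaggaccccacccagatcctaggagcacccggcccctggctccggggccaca
Itga11: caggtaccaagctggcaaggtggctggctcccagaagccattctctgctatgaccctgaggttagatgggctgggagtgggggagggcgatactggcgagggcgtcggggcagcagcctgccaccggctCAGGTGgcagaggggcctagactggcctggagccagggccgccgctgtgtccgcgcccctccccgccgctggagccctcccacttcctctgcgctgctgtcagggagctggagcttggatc
Itga2b: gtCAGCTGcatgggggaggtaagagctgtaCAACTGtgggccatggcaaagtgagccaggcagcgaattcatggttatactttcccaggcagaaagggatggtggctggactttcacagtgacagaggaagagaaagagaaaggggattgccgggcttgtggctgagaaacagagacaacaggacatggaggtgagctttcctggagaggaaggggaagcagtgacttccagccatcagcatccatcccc
Itgb6: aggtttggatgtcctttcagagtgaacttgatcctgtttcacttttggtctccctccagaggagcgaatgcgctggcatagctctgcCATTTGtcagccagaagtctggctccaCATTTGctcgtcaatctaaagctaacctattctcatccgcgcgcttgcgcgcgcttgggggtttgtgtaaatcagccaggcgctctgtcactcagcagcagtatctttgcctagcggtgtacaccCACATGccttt
Nid1: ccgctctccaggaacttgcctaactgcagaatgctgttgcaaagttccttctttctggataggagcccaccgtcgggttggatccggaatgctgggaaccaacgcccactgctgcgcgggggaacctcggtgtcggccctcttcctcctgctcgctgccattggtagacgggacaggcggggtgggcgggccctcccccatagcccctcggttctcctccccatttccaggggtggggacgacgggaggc
CANNTG reads the same on both strands. The match in Itga4 is CAGCTG, a subset of CANNTG, and begins 125 bases before the start. Itga11 holds CAGGTG at 121 bases, and Itga2b holds CAGCTG at 248 and CAACTG at 220 bases before the start. Itgb6 holds CATTTG at 163 and 136 bases and CACATG at 11 bases, while the Nid1 window holds none. These letters are common: 66.2% of the 32851 mouse promoters in the table hold CANNTG and 13% hold CAGCTG. The table held 24 such windows of 21 members, of which 12 overlap the RefSeq interval of their own gene; 20 of the 24 hold CANNTG and 6 hold CAGCTG, those of Itga1, Itga2b, Itga4, Itga9, Itgb5 and Lamb3.

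Among integrin alpha genes, 7 of the 9 tested rose in myotubes, Itga9 among them only through its myotube counts, 1 fell and 1 was not called. The 3 laminin-binding chains moved apart: Itga7 rose, Itga3 fell and Itga6 was not called. Itga7 (Entrez 16404, chr10:128933421-128958286 on GRCm38.p6, RefSeq) encodes the main laminin-binding alpha chain of muscle fibres. It had 1853, 1921 and 1951 CPM in the myotube libraries, against 667, 681 and 673 CPM in the myoblast libraries. Every myotube library lay far above every myoblast library, and the spread within each group was a small part of the gap. The difference was 2.83-fold (log2 1.50, SE 0.04, adjusted p = 3.05e-22 by edgeR's quasi-likelihood test). Counts per gene do not separate the alternatively spliced forms of this chain.

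Itga3 (chr11:95044475-95076844), a laminin-binding chain best known from epithelia and one that binds laminins with the alpha3 or alpha5 chain, went the other way. It had 49.9, 43.6 and 37.4 CPM in myotubes, against 261, 266 and 245 CPM in myoblasts. The groups were far apart, and the myotube libraries varied more, relative to their mean, than the myoblast libraries did. Its level in myotubes was 16.9% of that in myoblasts, a 5.93-fold decrease (log2 -2.57, SE 0.06, adjusted p = 1.6e-21, edgeR quasi-likelihood test). Itga6, which pairs with beta1 or beta4 to bind laminin, had 80.3, 87.3 and 85.6 CPM in myotubes, against 79.7, 79.8 and 78.1 CPM in myoblasts. Its log2 difference was 0.09 with a 95% interval of -0.02 to 0.20 (adjusted p = 0.109, edgeR quasi-likelihood test), so a change past 2-fold lies outside that interval. The call is close to the threshold: without myotube replicate 1 the log2 value was 0.13 with an adjusted p of 0.0468, and with scaling to total counts its sign turned, to -0.05.

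Itga5, the alpha chain of the classical fibronectin receptor, was the alpha chain whose level per length stood next to that of Itga7 in both groups. It had 384, 379 and 375 CPM in myotubes, against 354, 354 and 353 CPM in myoblasts. The groups did not overlap, but the difference was 1.07-fold (log2 0.10, SE 0.04, adjusted p = 0.0146, edgeR quasi-likelihood test). The call was lost without a filter on low counts (adjusted p = 0.245) and without myoblast replicate 1 (0.0573), and the sign turned under scaling to total counts (log2 -0.04, adjusted p = 0.271).

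Itga4, whose product pairs with beta1 or beta7 and binds VCAM-1 and fibronectin, had 49.7, 57.7 and 51.8 CPM in myotubes, against 5.84, 6.67 and 4.99 CPM in myoblasts. It was 9.02-fold higher in myotubes (log2 3.17, SE 0.10, adjusted p = 1.72e-19, edgeR quasi-likelihood test). Whether the counting used strand is not stated, and 8.04% of the exonic bases of Itga4 overlap the antisense gene Cerkl. Cerkl itself had 0.321 ± 0.34 CPM in myotubes and 0.116 ± 0.0408 CPM in myoblasts (SD, n = 3 each). Itga9, the closest relative of Itga4 and a receptor chain for tenascin-C and VCAM-1, had 2.85, 2.71 and 4.29 CPM in myotubes, against 0, 0.0813 and 0.188 CPM in myoblasts. These are 74 counts over the myotube libraries and 3 over the myoblast libraries, or 37.6-fold with a 95% counting interval of 12.4 to 187.

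The remaining alpha chains were scarce in both groups. Itga11, a collagen receptor chain, averaged 8.60 ± 0.659 CPM in myotubes and 2.45 ± 0.248 CPM in myoblasts and was 3.51-fold higher in myotubes (adjusted p = 1.54e-09, edgeR quasi-likelihood test; SD, n = 3 each). Itga2b, known as the platelet fibrinogen receptor chain, had 6.99, 7.71 and 6.69 CPM in myotubes, against 3.15, 2.52 and 2.36 CPM in myoblasts, a 2.66-fold difference. Itga10, another collagen receptor chain, was higher at a log2 change of 0.56 with a 95% interval of 0.12 to 1. Its call was lost under total counts (adjusted p = 0.0756), in the DESeq2 Wald test (0.0677), without myotube replicate 1 (0.105) and without myoblast replicate 2 (0.0922), and 33.5% of its exonic bases overlap a gene on the same strand, Gm42957. Itga1, Itga2 and Itga8 were not tested: Itga1 had 12 counts over the myotube libraries and 26 over the myoblast libraries, Itga2 had 2 and 0, and Itga8 had 2 and 1. The counting interval for Itga1 was 0.324 to 1.45 around a ratio of 0.704, so no difference was detectable at this depth.

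**Figure D2:**
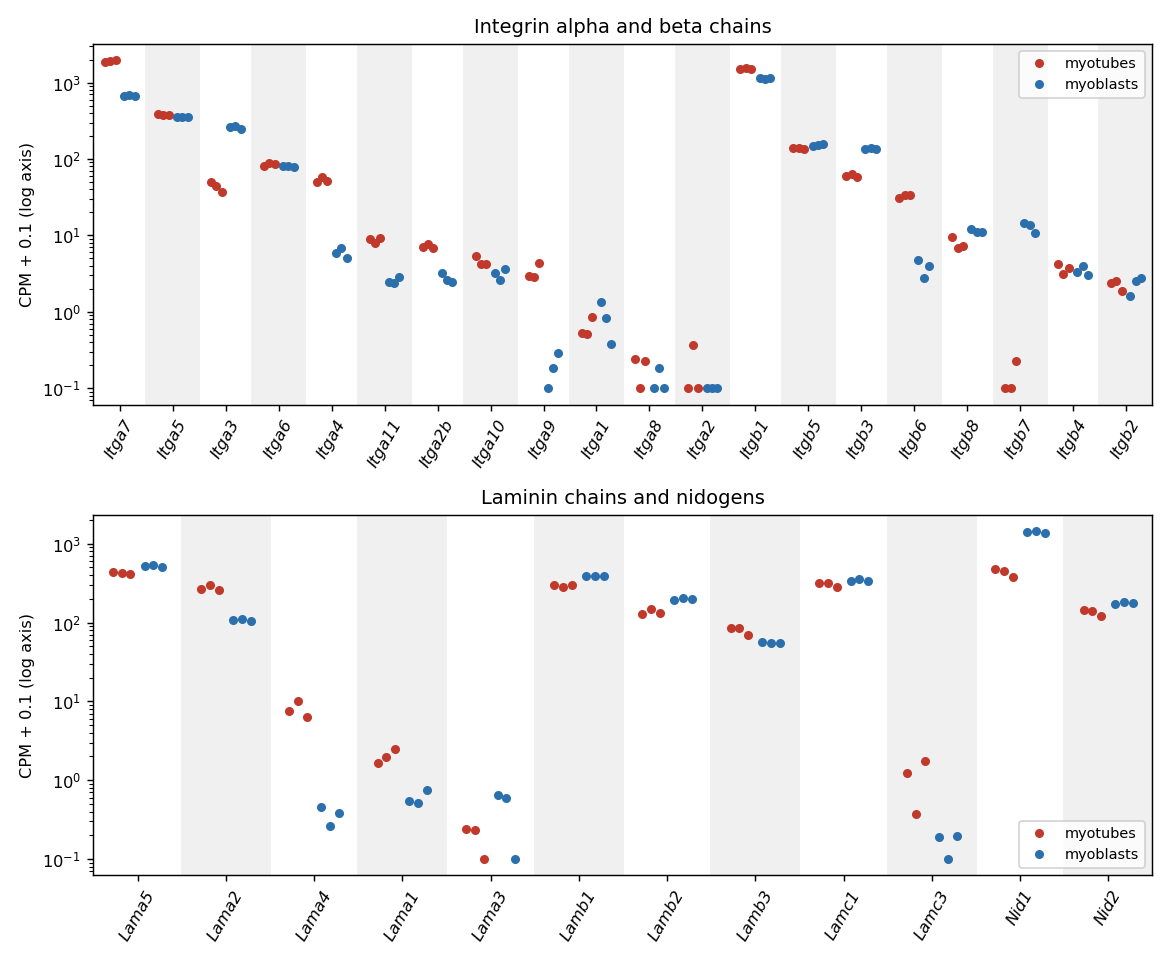
Level of 32 of the 33 members in every library as CPM + 0.1 on a log axis, with myotube libraries left of myoblast libraries. Itga7 is at 1853 to 1951 CPM in the myotube libraries and 667 to 681 CPM in the myoblast libraries, while Nid1 is at 380.5 to 479.9 CPM in the myotube libraries and 1368 to 1442 CPM in the myoblast libraries.

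Of the 8 integrin beta genes, all tested, 2 rose, 4 fell and 2 were not called. Itgb1 (chr8:128685654-128733579), the common partner of most laminin-, collagen- and fibronectin-binding alpha chains, had 1509, 1553 and 1489.7 CPM in myotubes, against 1145, 1098 and 1133 CPM in myoblasts. The groups stood clear of each other and the difference was 1.35-fold (log2 0.43, SE 0.04, adjusted p = 5.26e-11, edgeR quasi-likelihood test). The muscle splice form of the beta1 chain cannot be separated in counts per gene.

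The beta chains that pair with the alpha chain of Itgav divided. Itgb3, a vitronectin and fibrinogen receptor chain, had 60.2, 62.8 and 58.2 CPM in myotubes, against 135, 137 and 134 CPM in myoblasts. Its myotube level was 44.6% of the myoblast level (log2 -1.17, SE 0.05, adjusted p = 8.22e-17, edgeR quasi-likelihood test). Itgb5 fell to 137 ± 1.92 CPM in myotubes, against 152 ± 3.24 CPM in myoblasts (SD, n = 3 each), a small difference of -0.15 on the log2 scale. Itgb8, whose product binds latent TGF-beta, fell by 0.52 on the log2 scale, with levels of 6.77 to 9.56 CPM in myotubes and 10.8 to 11.9 CPM in myoblasts. Itgb6, a chain known from epithelia that also binds latent TGF-beta, rose: it had 30.8, 33.7 and 33.6 CPM in myotubes, against 4.67, 2.68 and 3.86 CPM in myoblasts. That is an 8.81-fold difference (log2 3.14, SE 0.13, adjusted p = 4.53e-17, edgeR quasi-likelihood test). Itgav itself, outside the rule, was lower, at 189 ± 1.55 CPM in myotubes and 269 ± 6.16 CPM in myoblasts (SD, n = 3 each; log2 -0.51).

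Itgb7, known from lymphocytes as a partner of the alpha4 chain, had 0, 0 and 0.126 CPM in myotubes, against 14.2, 13.5 and 10.5 CPM in myoblasts. The myotube value is 1 count against 435 in the myoblast libraries, and the level was 285-fold lower in myotubes with a 95% counting interval of 50.9 to 11286. Itga4 and Itgb7, which can form a pair, thus moved in opposite directions. The leukocyte chain Itgb2 had 1.77 to 2.44 CPM in myotubes and 1.53 to 2.64 CPM in myoblasts, overlapping ranges with a log2 difference of -0.03 and an interval of -0.61 to 0.55. Of the 6 leukocyte markers, Cd68 alone could be tested and was not called, Adgre1 and Cd3e were at 0 in all 6 libraries, and Ptprc had 1 count in each group. The summed level of that list was 1.57 to 2.65 CPM in myotubes and 1.79 to 2.34 CPM in myoblasts. Itgb4, the hemidesmosome partner of the alpha6 chain, had 2.98 to 4.14 CPM in myotubes and 2.92 to 3.82 CPM in myoblasts and was not called (log2 0.10, 95% interval -0.35 to 0.55).

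Among laminin alpha genes, Lama2 rose in myotubes and Lama5 fell; Lama1 and Lama4 were also called higher, but entered the test only through their myotube counts. Lama2 (chr10:26981285-27617191), the alpha chain of the muscle fibre's basement membrane, had 266, 299 and 262 CPM in myotubes, against 109, 111 and 105 CPM in myoblasts. No myotube library came near the myoblast range, and the difference was 2.55-fold (log2 1.35, SE 0.05, adjusted p = 1.28e-18, edgeR quasi-likelihood test). An antisense gene, Gm48084, overlaps 3.86% of its exonic bases. Lama5 (chr2:180176373-180225904), an alpha chain of embryonic, epithelial and vascular basement membranes, had 437, 419 and 411 CPM in myotubes, against 525, 543 and 504 CPM in myoblasts. Its myotube level was 80.6% of the myoblast level (log2 -0.31, SE 0.04, adjusted p = 1.06e-07, edgeR quasi-likelihood test), yet per length Lama5 was still the most abundant laminin alpha chain in both groups.

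Lama4, an alpha chain of vessels and mesenchymal tissue, was scarce and differed strongly. It had 7.42, 9.88 and 6.32 CPM in myotubes, against 0.359, 0.163 and 0.283 CPM in myoblasts. These are 175 counts over the myotube libraries and 9 over the myoblast libraries, or 29.7-fold (95% counting interval 15.3 to 66). The 6 endothelial markers summed to 4.47 to 6.56 CPM in myotubes and 0.377 to 0.809 CPM in myoblasts. Of that list Vwf alone could be tested, through its myotube counts only, and was higher, with 86 counts in myotubes and 2 in myoblasts. Pecam1 had 3 and 0, Cdh5 had 3 and 1, and Tek had 22 and 14. Kdr went the other way, with 1 count in myotubes and 4 in myoblasts, and Emcn was at 0 in all 6 libraries. The part of such transcripts in the Lama4 difference was not tested. Lama1, the alpha chain of early embryos, had 1.57 to 2.40 CPM in myotubes and 0.406 to 0.659 CPM in myoblasts and was called higher, at 3.87-fold. Lama3, an epithelial chain, had 2 counts over the myotube libraries and 12 over the myoblast libraries and was not tested.

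The beta and gamma chains mostly fell, by less than 2-fold. Lamb1, the most widespread beta chain, had 299, 284 and 299 CPM in myotubes, against 386, 394 and 385 CPM in myoblasts, so that the myotube level was 75.7% of the myoblast level (log2 -0.40, adjusted p = 6.7e-10, edgeR quasi-likelihood test). Lamb2, the beta chain concentrated at the neuromuscular synapse, had 128, 150 and 133 CPM in myotubes, against 192, 205 and 196 CPM in myoblasts, which left 69.3% (log2 -0.53). Lamc1, the gamma chain shared by most laminins, had 313, 314 and 285 CPM in myotubes, against 338, 355 and 334 CPM in myoblasts, and its myotube level was 88.8% of the myoblast level (log2 -0.17, adjusted p = 0.000808, edgeR quasi-likelihood test). The groups did not overlap for any of these chains.

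Lamb3, a beta chain known from epithelia, rose, with 84.8, 85.5 and 70.4 CPM in myotubes, against 55.9, 55.1 and 54.4 CPM in myoblasts (log2 0.54, adjusted p = 4.62e-08, edgeR quasi-likelihood test). The 6 epithelial markers summed to 4.33 to 4.71 CPM in myotubes and 8.29 to 9.88 CPM in myoblasts, with Epcam and Krt5 at 0 in all libraries. Krt14 was lower in myotubes (0.5 CPM in myotubes, 8.17 CPM in myoblasts) and Cdh1 higher (3.81 CPM in myotubes, 0.642 CPM in myoblasts), each tested only through its higher group. Cldn4 had 1 count in myotubes and 13 in myoblasts, Krt8 had 3 and 2, and neither was tested. The part of such transcripts in the values of Lamb3 and Itgb6 was not tested. Lamc3, a gamma chain of nervous tissue and skin, had 23 counts over the myotube libraries and 2 over the myoblast libraries, or 17.5-fold (95% counting interval 4.34 to 154), and did not pass the filter.

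Both nidogens fell. Nid1 (chr13:13437602-13512275), which binds the gamma1 chain of laminin and collagen IV, had 479.9, 446 and 380.5 CPM in myotubes, against 1416, 1442 and 1368 CPM in myoblasts. Its myotube libraries were spread more widely for their mean than its myoblast libraries, but even the highest lay far below them. Its myotube level was 30.9% of the myoblast level (log2 -1.70, SE 0.07, adjusted p = 1.76e-10, edgeR quasi-likelihood test). Nid2, its paralog, had 144, 140 and 122 CPM in myotubes, against 172, 180.1 and 177 CPM in myoblasts, or 76.5% of the myoblast level (log2 -0.39). Of the exonic bases of Nid2, 8.45% overlap the antisense gene Rtraf, which had 95.2 ± 4.89 CPM in myotubes and 51.2 ± 3.31 CPM in myoblasts (SD, n = 3 each), so part of the Nid2 counts is uncertain. Per length, Nid1 stood at 1.83, 1.69 and 1.59 times Lamc1 in myotubes, against 4.99, 4.85 and 4.89 times in myoblasts.

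To compare chains with each other, levels were divided by exonic length, giving RPKM, which is CPM per kilobase. The summed integrin alpha chains of the rule came to 338 ± 4.74 RPKM in myotubes and 211 ± 2.46 RPKM in myoblasts (SD, n = 3 each), a log2 difference of 0.68. The summed beta chains came to 427 ± 8.52 RPKM in myotubes and 349 ± 5.73 RPKM in myoblasts, a log2 difference of 0.29. The summed laminin chains were lower, at 159 ± 5.46 RPKM in myotubes and 178 ± 4.43 RPKM in myoblasts, a log2 difference of -0.16. With scaling to total counts the log2 differences were 0.53 for the alpha, 0.15 for the beta and -0.31 for the laminin sum, and the laminin sum was -0.09 when reads were not divided by length. Within the laminins, the alpha chain sum was 52.9 to 56.1 RPKM in myotubes and 50.7 to 54.6 RPKM in myoblasts, which overlap, whereas the beta and gamma chain sums were lower in every myotube library. For each of the 10 sums and shares compared in this way, the groups did not overlap and an exact two-sided permutation test over the 6 libraries gave p = 0.1, which is the smallest value that 3 libraries against 3 allow, and 0.1 after Benjamini-Hochberg adjustment over the 10. None can therefore pass 0.05, and the sizes below are to be read against the spread between libraries.

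**Figure D3:**
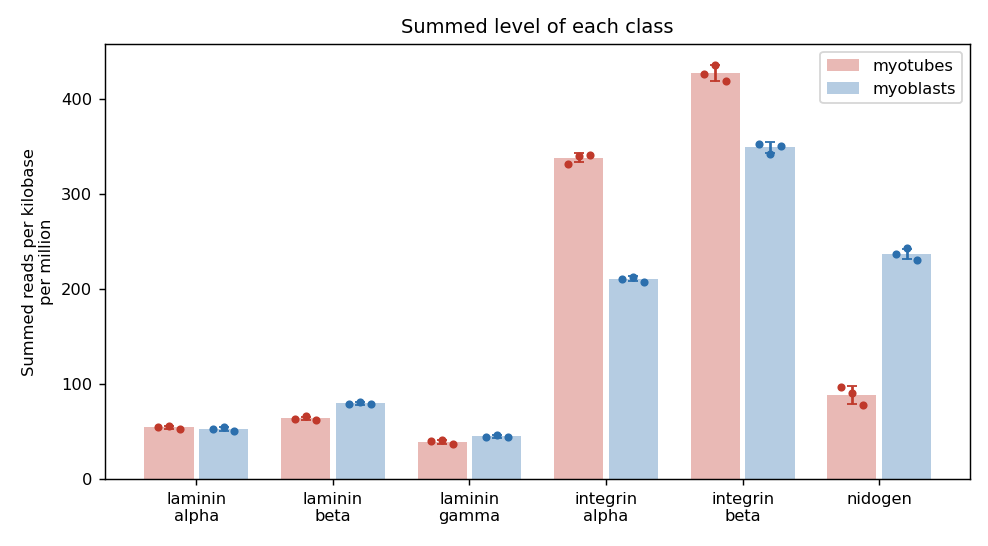
Summed level of each gene class per length (RPKM) in every library, myotubes left of myoblasts, with the mean of each group. Integrin alpha sums are 332 to 341 RPKM in myotubes against 208 to 213 RPKM in myoblasts, while nidogen sums are 78.3 to 96.9 RPKM in myotubes against 231 to 243 RPKM in myoblasts.

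Itga7 made up 68.9, 69.9 and 70.6% of the summed integrin alpha level in myotubes, against 39.1, 39.5 and 39.9% in myoblasts, a gain of 30.3 percentage points. Itga5 accounted for 22.8% in myotubes and 34.0% in myoblasts, Itga3 for 2.27% in myotubes and 21.4% in myoblasts, and Itga6 for 2.77% in myotubes and 4.16% in myoblasts. Grouped by ligand, the laminin-binding chains Itga3, Itga6 and Itga7 summed to 253 ± 5.53 RPKM in myotubes and 137 ± 2.46 RPKM in myoblasts (SD, n = 3 each), or 74.8% of the alpha sum in myotubes and 65.0% in myoblasts. The RGD-binding chains Itga5, Itga8 and Itga2b summed to 78.2 ± 0.955 RPKM in myotubes and 72.2 ± 0.181 RPKM in myoblasts, or 23.2% in myotubes and 34.2% in myoblasts. Itgav also binds RGD ligands, and with it this sum was 94.7 to 96.7 RPKM in myotubes and 96.6 to 97.8 RPKM in myoblasts, so the groups overlapped and the mean was lower in myotubes. Its share of the alpha sum with Itgav was 27.0% in myotubes and 41.2% in myoblasts. The ratio of Itga7 to Itga3 per length was 26.2, 31.1 and 36.8 in myotubes, against 1.80, 1.80 and 1.94 in myoblasts. Itga6 made up 3.81 ± 0.09% of Itga6 plus Itga7 in myotubes and 9.54 ± 0.13% in myoblasts.

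With Itgav, which the rule leaves out, added to the sum, Itga7 was 66.3% of the alpha sum in myotubes and 35.3% in myoblasts. Itgb1 made up 86.9, 87.2 and 87.0% of the summed beta level in myotubes, against 79.4, 78.6 and 79.2% in myoblasts. Itgb5 followed with 9.02% in myotubes and 12.3% in myoblasts, then Itgb3 with 2.40% in myotubes and 6.58% in myoblasts.

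**Figure D4:**
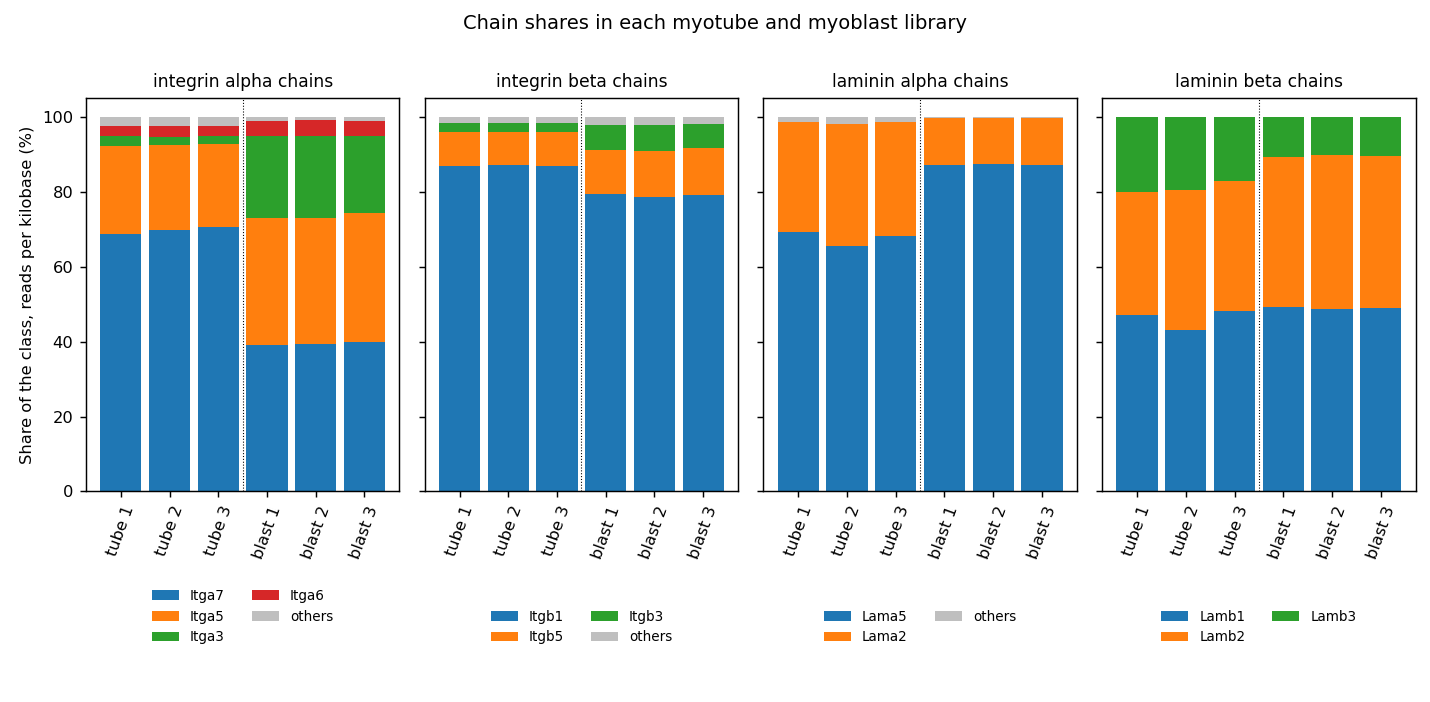
Share of each chain in the summed integrin alpha, integrin beta, laminin alpha or laminin beta level per length, in percent, for every library, myotubes left of myoblasts; grey holds chains under 2% on average. Itga7 averages 69.8% of the integrin alpha sum in myotubes and 39.5% in myoblasts, and Lama5 averages 67.7% of the laminin alpha sum in myotubes and 87.2% in myoblasts.

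Lama5 made up 69.2, 65.6 and 68.2% of the summed laminin alpha level in myotubes, against 87.2, 87.4 and 87.2% in myoblasts. Lama2 took 30.8% in myotubes and 12.5% in myoblasts, and Lama4 took 1.19% in myotubes and 0.0424% in myoblasts. The ratio of Lama5 to Lama2 was 2.36, 2.01 and 2.25 in myotubes, against 6.93, 7.03 and 6.90 in myoblasts. Among beta chains, Lamb1 held 47.1, 43.2 and 48.1% in myotubes, against 49.3, 48.6 and 48.9% in myoblasts; its mean difference of -2.81 points was -1.35 points without myotube replicate 2. Lamb3 held 18.9% of the beta sum in myotubes and 10.4% in myoblasts.

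The size of a share depends on the length used, because the union of annotated exons can be much longer than the longest transcript: 8092 against 4020 bases for Itga7 and 16338 against 9614 bases for Lama2. With the longest transcript in its place, Itga7 was 79.1% of the alpha sum in myotubes and 52.1% in myoblasts. Lama5 was then 55.2% of the laminin alpha sum in myotubes and 80.2% in myoblasts, with 42.6% for Lama2 in myotubes and 19.6% in myoblasts, and the ratio of Lama5 to Lama2 was 1.30 in myotubes and 4.09 in myoblasts. The summed laminin alpha level, which overlapped between groups with union lengths, was 64.6 to 69.7 RPKM in myotubes and 55.2 to 59.3 RPKM in myoblasts with longest transcripts. The RGD-binding sum with Itgav also overlapped with union lengths. With longest transcripts it was 113 to 116 RPKM in myotubes and 118 to 119.9 RPKM in myoblasts, without overlap. The ratio of summed alpha to summed beta integrin chains was 0.791 in myotubes and 0.605 in myoblasts with union lengths, and 1.31 in myotubes and 0.863 in myoblasts with longest transcripts, so whether alpha or beta transcripts were more abundant in myotubes depends on the length.

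Over the 15 tested members that averaged 50 CPM or more, the coefficient of variation was 1.21 to 14.4% in myotubes and 0.15 to 4.29% in myoblasts. Among these, Itgb1, Itgb5 and Lama5 varied slightly less in myotubes than in myoblasts. Below that level the direction was mixed. Itgb6 had 4.99% in myotubes and 26.8% in myoblasts, and Itgb8 had 19.2% in myotubes and 5.15% in myoblasts. Of the 28 tested members, 15 had their lowest myotube value in replicate 3, against 7 in replicate 1 and 6 in replicate 2; Itga3, Nid1, Lamb3 and Lamc1 were among the 15.

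Other genes of the pathway were taken from 5 lists. Their counts of called genes stand beside 79.5% called over all genes tested, 40.2% higher and 39.2% lower. Being called therefore does not set a listed gene apart. Of the 19 tested genes for integrin activation and adaptors, 10 rose and 9 fell, with a median log2 change of 0.09. Itgb1bp2 (melusin), a muscle protein that binds the beta1 tail, was at 249.9 ± 10.9 CPM in myotubes and 1.04 ± 0.27 CPM in myoblasts (SD, n = 3 each, log2 7.91). With 35 counts over the myoblast libraries, Itgb1bp2 could be tested only through its myotube counts. Kank1, a talin-binding protein, rose by 3.41 on the log2 scale. The actin cross-linker Flna fell to 1232 ± 15.3 CPM in myotubes, against 4156 ± 185 CPM in myoblasts (log2 -1.75), and the adhesion adaptor Parva changed by -1.10.

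Of the 9 other laminin receptors and their partners, 7 rose and 2 fell, with a median log2 change of 2.39. The syntrophin Sntb1 was at 118 ± 2.66 CPM in myotubes and 11.1 ± 0.245 CPM in myoblasts (SD, n = 3 each; log2 3.41). Rpsa, a ribosomal protein also named as a laminin receptor, changed by -0.32 and the tetraspanin Cd151 by -0.19. Dag1, the dystroglycan gene, is named here after its values were seen: it had 592, 631 and 628 CPM in myotubes, against 269.8, 268 and 267 CPM in myoblasts (log2 1.20).

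Of the 17 tested genes for other basement membrane proteins, 12 rose and 5 fell, with a median log2 change of 0.44. Some of the 12, Frem2 and Col15a1 among them, passed the filter through the myotubes alone. These had to differ to be tested, and they also enter the median. Frem2 had 121 counts over the myotube libraries and 2 over the myoblast libraries, or 92.3-fold (95% counting interval 25.0 to 771), and Col15a1 had 80 and 2 counts, or 61.0-fold (16.4 to 513). The collagen IV chain Col4a1, part of the network that nidogens bind, fell to 242 ± 8.04 CPM in myotubes, against 466 ± 4.9 CPM in myoblasts (SD, n = 3 each; log2 -0.95), and Fbln1 changed by -2.44. Of the 19 tested integrin ligands outside basement membranes, 7 rose, 11 fell and 1 was not called, with a median of -0.20; Postn (log2 2.76) and Col1a1 (2.30) rose most and Svep1 (-2.82) and Thbs2 (-2.39) fell most. Among the 7 integrin genes outside the rule, only Itgav and Itgam were tested, and Itgam had 51 counts over the myotube libraries and 2 over the myoblast libraries, or 38.9-fold (95% counting interval 10.2 to 330). Itgam too passed the filter through the myotubes alone.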

How the data were processed

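Polyadenylated RNA from 3 C2C12 myotube and 3 myoblast samples was sequenced after stranded library preparation, per the labels' protocols. The table deposited by the authors holds raw counts per gene, not normalized, for the 6 libraries. Fastp, STAR, featureCounts and the mm10 genome are named in the submitters' processing notes; the sources used here give no version, strand setting or treatment of reads with several matches. Without the strand setting, counts of genes that overlap an antisense gene are uncertain.

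Samples were grouped by their titles. Differences were tested on the counts with edgeR 4.0.16 in R 4.3.3: filterByExpr (minimum count 10, minimum total 15; 12800 of 27179 genes kept, with 99.86% or more of every library's counts), TMM scaling, the robust quasi-likelihood F test, and Benjamini-Hochberg adjustment over all genes tested with a threshold of 0.05. The 2-fold call used glmTreat with a log2 threshold of 1. SE, the standard error, was taken as the size of the log2 change over the root of F and is too small where a group has few counts. Fold changes are myotubes over myoblasts. The biological coefficient of variation was 3.56%. For members and listed genes with few counts, among them all with 1 to 3 counts in a group that are given a ratio, ratios of summed counts have exact binomial 95% intervals, which cover counting error only; 3 counts over a group are 0.134 CPM in myotubes and 0.0881 CPM in myoblasts, the limit that a count of 0 allows.

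Per-length levels used the union of exons in GENCODE M21 (GRCm38, the assembly of mm10), with the longest transcript as the alternative; annotation and RefSeq promoters were read with Python 3.11.15. Sums and shares were compared by exact two-sided permutation over libraries. No replicate pair held identical values, and the chi-square per degree of freedom between replicates was 1.35 to 3.22. Each library counted as 1 sample, though these values cannot tell separate cultures from repeated libraries of 1 culture. The scripts were tested on simulated data. Alternatives were DESeq2 1.42.0 size factors and Wald test, total counts, limma 3.58.1 voom, other filters, a replicate block and leaving out each library.

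Members and gene lists were chosen with earlier results of these data known. The rule names every member; in each other list, those named are the 2 largest changes in each direction among called genes that averaged 1 CPM or more. Dag1 and the marker genes given beside a member lie outside this rule. Some genes, 1 member among them, enter the counts and sums but are not reported here by name.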

Additional observations from a re-analysis of the deposited data

How the results depend on the processing

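Under the alternatives the counts of genes and members called stayed within 1.5 times those reported, and the sums and shares kept their direction; their permutation p cannot pass 0.05 under any setting, so it says nothing about stability. The beta sum was 0.15 and the laminin sum -0.31 under total counts, and the laminin sum -0.09 with no length. Members past 2-fold were 7 higher and 3 lower in the DESeq2 Wald test, 7 higher in limma-voom and 7 to 9 higher with 1 library left out. Among single members, 349 alternative values kept direction and call, 6 lost the call, 1 gained it and 8 turned sign. With scaling to total counts, which shifted the median of all genes by -0.15 on the log2 scale, the values were -0.04 for Itga5, -0.05 for Itga6 and -0.05 for Itgb4, and 11 members were higher and 12 lower. Itgb2 was 0.01 in limma-voom and -0.24 to 0.10 with 1 library left out, and Itgb4 was -0.01 to 0.22 with 1 library left out; neither was called in any of these. Itga10 lost its call under 4 alternatives and Itga5 under 3, total counts included, and Itga6 gained a call without myotube replicate 1. The cause was not tested.

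With the replicate block, 13 members were higher and 12 lower, among 5142 genes higher and 5019 lower, and the exact sign-flip test of each sum and share gave 0.25, the smallest it allows. Deviations of same-numbered libraries from their group means had correlations of 0.01 at most, and not every library correlated best with its own number. These values gave no sign that the numbers pair the libraries, but they cannot exclude a small shared effect. Depth limits Itga1, Itga2, Itga8, Lama3 and Lamc3, which were not tested. With no filter, Lamc3 was tested and higher. It was also called higher without myotube replicate 2, the myotube library with its fewest counts. There it passed the filter through the myotubes alone, so it had to differ to be tested.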
